A study of Drosophila melanogaster with 4 samples.

Results

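Adult cone cells (CCs) were compared with adult photoreceptors (PRs) of the Drosophila retina over the 14935 genes of the normalized table, each cell type being represented by 1 of the 4 RNA-seq libraries of the series. Adult CCs came from yw67;sp/CyO;TM2/TM6B flies and were sorted with an antibody to Fas3, an adhesion molecule that marks CCs and also the interommatidial bristle, and with 22C10, an antibody to Futsch in PRs and bristle neurons. Adult PRs were the RFP-positive, GFP-negative cells of prosPSG-GFP flies, in which the 3xP3-RFP marker of the docking site is expressed in adult PRs. Both were taken 1 to 2 days after eclosion from pools of 45 to 75 animals, with brain and lamina removed and the tissue dissociated in trypsin. The larval and pupal CC libraries, sorted by GFP from sev-; prosPSG-GFP; TM2/TM6B animals that lack R7 cells, serve only to show the earlier level of a gene. Genotype, sort and library preparation differ between the adult libraries along with cell type and cannot be told apart from it.

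Each ommatidium of the fly eye holds a cluster of PRs, which are histaminergic neurons with a light-sensing rhabdomere and an axon to the optic lobe, capped by CCs that secrete the lens and send processes down to the retinal floor. PRs respond to light through an opsin, a phospholipase C and TRP channels, and pass graded voltage changes to their synapses. CCs are epithelial in origin, and they have been proposed to support PRs in the manner of glia. The differences of the mature pair are described below with the weight on genes outside the opsin, phototransduction, lens and glial sets, in the order of synapse and excitability, receptors and signals, adhesion and matrix, transcription, and metabolism.

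Levels are log2 normalized read counts, not divided by gene length, so that they are compared between libraries for the same gene and never between genes. Differences are adult CC minus adult PR on a log2(value + 4) scale, where the added 4 units shrink the difference of a low gene. A gene was called higher or lower in adult CCs at a difference of 2 or more, a 4-fold change, if the higher library reached at least 32 units. With 1 library per cell type there is no replicate check and no p-value for any of these differences. By this rule 1390 genes were higher in adult CCs, 9.31% of all genes, and 734 were lower, 4.91% of all genes. Among the 6360 genes that reached 32 units in either adult library, 21.9% were higher and 11.5% lower, and the counts within gene lists are read against these shares, over the members that reached 32 units. The split between the directions depends on the scaling of the libraries. With the median log2 ratio of genes at 32 units or more in both libraries set to 0, a shift of 0.51, 922 genes were higher and 984 lower, and with equal library totals, a shift of 0.29, 1086 were higher and 882 lower. Over the 9098 genes at 8 units or more in either library the median difference was 0.67, and list medians are given over members that reach the same 8 units.

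The adult CC library summed to 3253648 units and the adult PR library to 2653155 units, with 11557 and 8997 genes above 0. Low values piled up at steps of 0.854 units in adult CCs and 1.66 units in adult PRs, which would put the 32-unit floor at about 37.4 and 19.3 reads, so low PR levels are the coarser ones. Fas3 stood at 11.83 in adult CCs and 7.33 in adult PRs, and futsch at 6.58 in adult CCs and 12.47 in adult PRs. Antibodies to both products were used to sort adult CCs, so these levels are no independent check. The PR sort used RFP and GFP instead. The gene pros, whose enhancer drove the GFP that PRs were sorted against, was low in both. It was at 4.28 in adult CCs and 5.05 in adult PRs and was called neither way. All 13 PR markers were lower in adult CCs, with differences that ran from -14.64 to -2.15. The widest was that of ninaE, the major opsin gene, which in adult CCs reached 0.00154% of its PR level. The lens gene retinin in adult PRs stood at 1.82% of its adult CC level.
The heat shock genes and the hemocyte and muscle markers that were called were higher in adult CCs. Called pigment cell markers went both ways, and the called fat body gene was lower. The part of all these genes in the differences below was not tested. Of 22 heat shock and early stress genes (20 at 32 units) the adult CC library had 14 higher and 0 lower, among them 6 near-identical Hsp70 copies. The summed level of the 22 was 86171 units in adult CCs against 10587 in adult PRs. Hsp70Bbb was at 12.01 against 5.56 and Hsp27 at 11.56 against 6.35. Of 9 hemocyte markers (4 at 32 units) 3 were higher and 0 lower, or 2 and 0 under each other scaling. Hml was at 7.23 against 2.32, while the hemocyte marker He was listed at 0 in both. Of 15 muscle markers (4 at 32 units) 3 were higher, the giant sarcomeric proteins sls and bt and the myosin heavy chain Mhc. The flight muscle actin Act88F was at 0.94 and 2.73. In both the hemocyte and the muscle list, 75.0% of the members at 32 units were higher, against 21.9% of all genes. Of 10 pigment cell markers (7 at 32 units) 2 were higher and 2 lower, but 1 and 3 under each other scaling, with Pdh at 16.53 against 13.48. Of 9 bristle markers (2 at 32 units) 1 was higher, cpo, while the bristle gene sc was listed at 0 in both. Yp3, a yolk protein gene of female fat body, was the single one of 8 fat body genes (2 at 32 units) called, with a difference of -2.58. The lens and CC fate genes, opsins, phototransduction genes and fly glial genes, 78 genes in all, were left out of the leading genes given next. Some gene lists hold a few of them, and where such members were called the count without them is given.

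**Figure D1:**
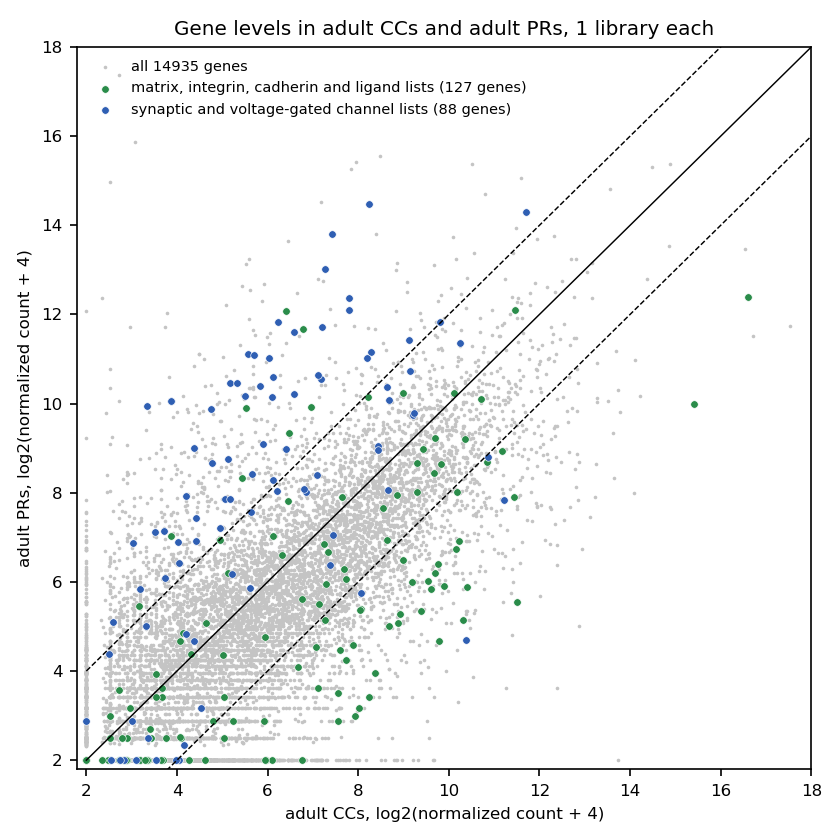
Each point is 1 of the 14935 genes, with log2(normalized count + 4) in adult CCs on the horizontal and in adult PRs on the vertical axis, 1 library each. The solid line marks equal levels and the dashed lines a difference of 2 either way. Of 88 genes in the synaptic and voltage-gated channel lists (blue) 71 reached 32 units, and 49 were lower and 4 higher in adult CCs. Of 127 genes in the matrix, integrin, cadherin and ligand lists (green) 81 reached 32 units, and 44 were higher and 8 lower. Among all genes that reached 32 units, 21.9% were higher and 11.5% lower.

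The genes with the widest separation were mostly near-absent from one of the adult libraries. Among called genes with a log2 level of 8 or more in the higher library, the 12 that were highest in adult CCs relative to PRs included Hsp70Aa, an inducible chaperone gene, at 13.72 in adult CCs and listed at 0 in adult PRs. Its near-identical copy Hsp70Ab was at 13.73 and 10.29, and both were at 9.74 in pupal and 8.96 in larval CCs, so the reads of such copies may have been divided between them and the value of either alone is uncertain. Osi9, of the Osiris family of membrane proteins in cuticle-forming epithelia, was at 12.39 in adult CCs against 3.05 in adult PRs, and was near its PR level in pupal and larval CCs, at 1.66 and 1.84. The cytochrome P450 gene Cyp4c3 was at 11.25 against 3.05, a difference of 7.63. Egfr, the receptor for epidermal growth factor ligands, was at 9.54 against 0.73, a difference of 7.05, after 7.65 in pupal and 8.70 in larval CCs. The ubiquitin protease gene ec (echinus), needed for the removal of surplus cells from the pupal retina, was at 8.97 in adult CCs and listed at 0 in adult PRs. Listed at 0 in adult PRs as well were the mucin gene Muc30E at 9.20 in adult CCs, Rsod, a relative of superoxide dismutase, at 8.84, Jhbp14, of the juvenile hormone-binding protein family, at 8.82, and the genes CG1136, CG14303 and CG6908 at 9.66, 9.64 and 9.32. CG15529 was at 10.20 against 2.54 and completed the 12.
In the other direction, Slob, whose product binds and modulates the Slowpoke potassium channel, was at 3.29 in adult CCs and 12.04 in adult PRs, a difference of -8.25. The translation elongation factor gene eEF1alpha2 was at 4.90 against 12.22, yet it had stood at 12.94 in pupal and 9.53 in larval CCs. The endosomal ubiquitin ligase gene gol was at 5.29 against 12.65, and ltl, which encodes a secreted leucine-rich repeat protein, at 1.36 against 10.05. The ARID transcription factor gene retn was at 3.34 against 10.59, and SmydA-8, of the SET and MYND domain family, was listed at 0 in adult CCs and at 9.22 in adult PRs. The set of 12 also held Syt4, the homeobox gene oc of PR fate, and CG13792 and CG18598, at 0.80 against 10.34 and 0.94 against 9.24. The last of the 12, inaF-D and Xport-B, belong to loci of phototransduction; Xport-B had the same values as Xport-A in every library, as had 18 called genes with another gene, so such pairs count as 1 measurement.

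Genes of the synaptic vesicle and the active zone were lower in adult CCs as a group. Of 44 measured genes, 41 reached 32 units, 25 of them were lower and 2 higher, which is 61.0% lower against the 11.5% of all genes, with a median of -2.50. Syt4, a calcium-binding synaptotagmin, was at 2.60 in adult CCs and 9.93 in adult PRs, a difference of -6.61. The vesicle SNARE gene nSyb was at 7.39 against 13.80, a difference of -6.38, and complexin (cpx), which clamps the assembled SNARE complex, at 8.23 against 14.48. The endocytic genes stnA and stnB share a transcript and had the same values, 3.41 in adult CCs against 10.05 in adult PRs. The target SNARE gene Snap25 was at 4.51 against 9.87, the vesicle protein gene Syn at 5.58 against 11.10, the active zone scaffold brp at 6.03 against 10.59, and the priming factor unc-13 at 11.70 against 14.29.
These genes were not uniformly low in the earlier CC libraries. Syt4 was at 8.23, stnB at 9.17, brp at 10.06 and Rab3 at 10.22 in pupal CCs, each above its adult CC level, whereas Snap25 was at 5.45 in pupal and 2.58 in larval CCs. The neuronal gene futsch was at 10.49 in pupal and 10.31 in larval CCs, against 6.58 in adult CCs. Whether RNA of neurons contributed to the pupal and larval levels, here and for the other neuronal genes of this report, was not tested. The 2 genes higher in adult CCs were Amph, a membrane-bending amphiphysin, at 11.22 against 7.81, and Snap24, a second SNAP-25 family gene, at 8.04 against 5.64. Snap24 was called no more with the median ratio set to 0.

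Transmitter genes that were called were lower in adult CCs with 1 exception. PRs use histamine, and Hdc, the enzyme that makes it, was at 4.19 in adult CCs against 9.78 in adult PRs, a difference of -5.31. The hydrolase gene t (tan), which frees histamine from carcinine, was at 5.55 against 10.84, and the carcinine transporter CarT at 4.27 against 9.20. Cholinergic genes were lower too, among them ChAT, which makes acetylcholine, the choline transporter ChT, and Ace, the acetylcholinesterase, at 5.23 against 9.71. Ddc, the decarboxylase that makes dopamine and serotonin and supplies cuticle tanning, was the 1 gene of 23 (12 at 32 units) that was higher, at 8.83 against 6.38, and it was called no more with the median ratio set to 0. In all, 6 of the 23 were lower.

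Voltage-gated channel genes were lower in adult CCs in nearly every case in which they were called. Of the sodium and calcium channel genes, 14 of 16 reached 32 units, 12 were lower in adult CCs and 0 higher, with a median of -3.19. The L-type calcium channel Ca-alpha1D was at 6.15 in adult CCs against 11.83 in adult PRs, the presynaptic calcium channel cac at 6.52 and 11.61, and the sodium channel subunit gene Teh2 at 5.94 and 11.03. The sodium channel para was at 8.18 against 11.02, a difference of -2.82. Levels of cac, stj and Ca-beta in pupal CCs were 9.52, 8.93 and 8.94, between the adult CC and the PR level in each case.
Of the potassium channel genes, 17 of 29 reached 32 units, 13 were lower and 2 higher, with a median of -2.55. The Shaker regulator gene qvr (sleepless) was at 7.24 against 13.02, the calcium-activated channels SK and slo at 5.44 against 11.11 and 7.15 against 11.72, and eag was lower by a difference of -4.05. Those that went the other way were Ir, the inward rectifier also called Irk1, at 10.37 against 4.44, and Ih, the hyperpolarization-activated channel, at 10.87 against 8.78. Ir had been at 5.59 in pupal and 5.28 in larval CCs. Another inward rectifier gene, Irk2, was among the lower ones, at 4.87 against 7.83. Ih was called under neither other scaling.
Ion pumps and cotransporters divided by subunit. Atpalpha, the catalytic subunit of the sodium pump, was at 12.69 and 13.24 and was called neither way. Its beta subunits differed: nrv1 was at 0.59 in adult CCs against 8.39 in adult PRs and nrv3 at 7.19 against 12.74, while nrv2, counted among the glial genes, was at 9.24 and 9.11 and changed sign under each other scaling. Of 23 chloride channel and anion transport genes (17 at 32 units) 4 were lower, among them the potassium-chloride cotransporter kcc at 4.36 against 9.04 and the channel ClC-a at 8.06 against 10.63. Higher were Cftr, with a difference of 2.58, and subdued, a calcium-activated chloride channel relative, at 7.02 against 4.71, but subdued was called under neither other scaling. Of 29 pickpocket sodium channel genes (2 at 32 units) 0 were called in either direction.

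**Figure D2:**
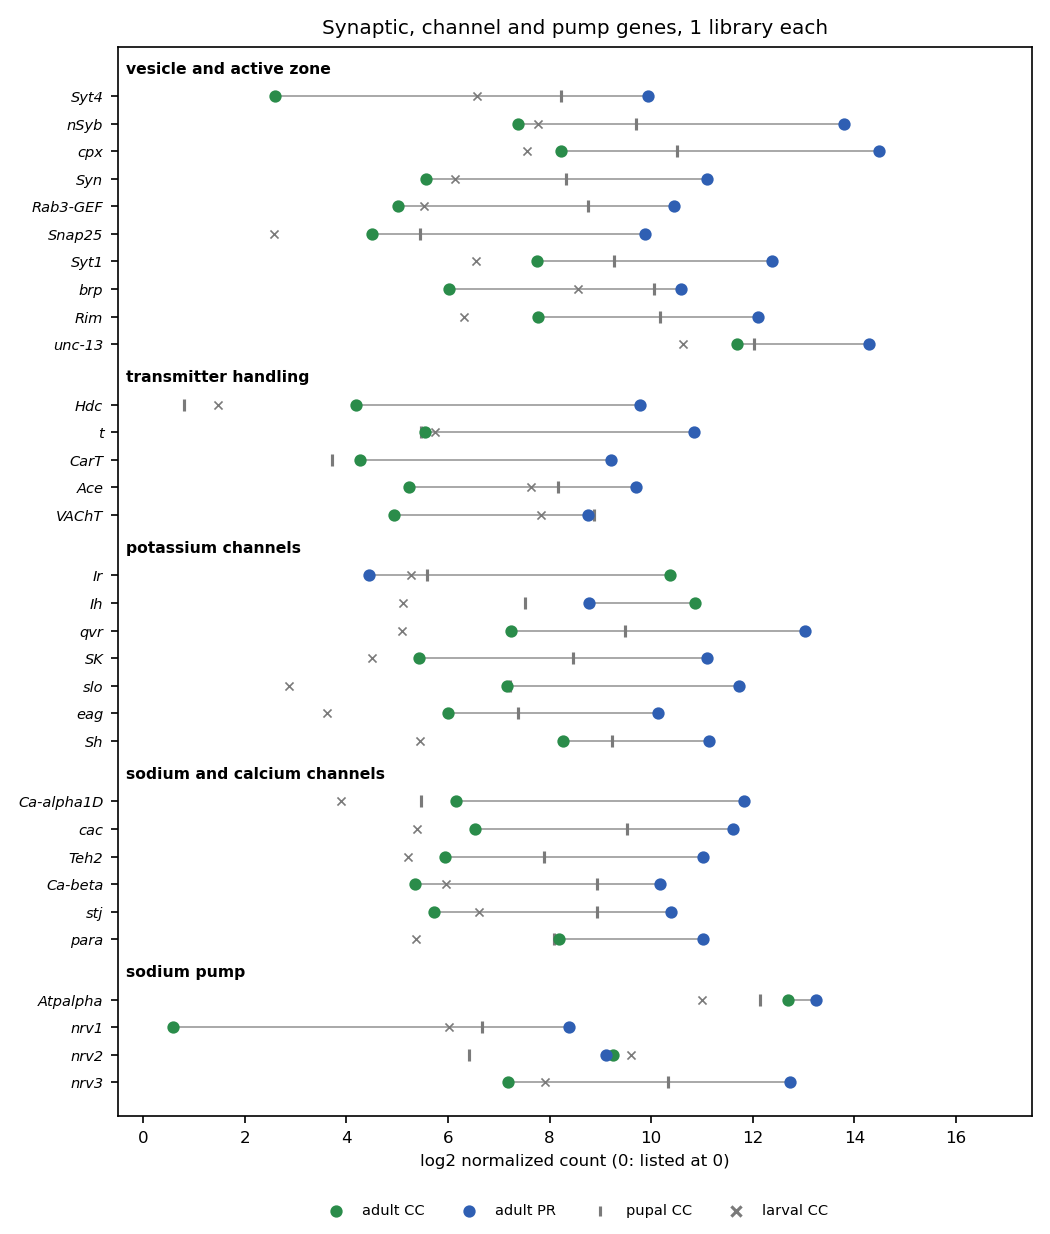
Log2 normalized counts of synaptic, transmitter, channel and sodium pump genes, with adult CCs in green, adult PRs in blue and the pupal and larval CC libraries as grey bars and crosses, 1 library each. The synaptic genes, calcium channels and nrv1 and nrv3 lie far to the right in adult PRs, Ir and Ih lie to the right in adult CCs, and Atpalpha and nrv2 have nearly the same level in both.

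Receptors for amines and peptides were divided member by member and not as a class. Of 26 amine, acetylcholine, GABA and glutamate receptors coupled to G proteins, 10 reached 32 units, 3 were higher in adult CCs and 4 lower. The serotonin receptor gene 5-HT2A was at 12.26 in adult CCs and 9.20 in adult PRs, after 6.18 in pupal and 0.84 in larval CCs. The alpha-type octopamine receptor Oamb was at 9.34 against 6.66, while the beta-type Octbeta1R was listed at 0 in adult CCs and at 6.85 in adult PRs and Octbeta2R stood at 3.52 against 7.22. DopEcR, which responds to dopamine and ecdysteroids, was at 7.34 against 12.11, a difference of -4.74, and the muscarinic receptor mAChR-A at 3.84 against 6.58. The glutamate receptor mGluR was at 5.27 in adult CCs and listed at 0 in adult PRs.
Of 41 peptide and protein hormone receptors, 7 reached 32 units, 2 were higher and 2 lower. Pdfr, the receptor for the clock peptide PDF, was at 10.62 in adult CCs against 6.88 in adult PRs, and at 3.47 in pupal and 1.12 in larval CCs. SIFaR was at 5.66 in adult CCs and listed at 0 in adult PRs, while the allatostatin receptor AlstR was at 0.59 against 5.90 and Lgr1 at 4.10 against 6.45.
Of 35 ligand-gated transmitter receptors 14 reached 32 units, 3 were higher and 5 lower, with 7 lower under each other scaling. The nicotinic subunits went both ways, nAChRbeta2 at 6.64 against 0.73 and nAcRalpha-80B at 2.62 against 7.74. So did the ionotropic glutamate receptors, Nmdar2 at 5.62 against 1.73 and Ekar, a kainate-type subunit, at 7.23 against 10.42. The pH-gated chloride channels pHCl and alka were both lower, at 5.01 against 8.34 and 3.42 against 7.49. HisCl1, a histamine-gated chloride channel, was at 6.31 and 8.29, short of the rule, but it was called lower under each other scaling.
The chemosensory families were low in both libraries. Of 60 odorant, 60 gustatory and 63 ionotropic receptor genes, 4, 3 and 10 reached 32 units. The gustatory receptor gene Gr97a was listed at 0 in adult CCs and at 7.54 in adult PRs, and Ir93a was at 7.05 in adult CCs and listed at 0 in adult PRs. Of the methuselah-like family 3 of 16 (6 at 32 units) were higher and 2 lower, but 0 were higher under either other scaling.

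Receptor tyrosine kinases and the receptors of the Wnt, Hedgehog and Notch pathways were higher in adult CCs more often than genes in general. Of 18 receptor tyrosine kinases 12 reached 32 units, 6 of them were higher and 1 lower, with a median of 1.25, and 3 were higher with the median ratio set to 0. Besides Egfr these included Cad96Ca, a cadherin-domain kinase of epidermal wound repair, at 10.41 against 5.79, and sev, the kinase that instructs R7 fate, at 6.95 against 3.54. Its ligand gene boss, made by R8 cells, went the other way, at 4.90 against 10.62. The insulin receptor InR was at 10.53 against 8.29 and was called under neither other scaling. Ddr, a collagen receptor relative, was the lower one, at 2.36 against 5.12.
Of 19 TGF-beta, Notch, Wnt and Hedgehog receptors, a list that also holds the Notch ligands, 18 reached 32 units, 9 were higher, 50.0% against 21.9% of all genes, and 0 were lower. The 9 included 4 Frizzled genes. fz was at 7.30 in adult CCs against 0.73 in adult PRs and fz3 at 6.61 against 1.73. The Hedgehog coreceptor boi was at 9.07 against 4.98, the Hedgehog receptor ptc at 6.96 against 3.90, and the Notch ligand gene Delta at 7.70 against 3.90. The Notch receptor gene N was at 9.07 against 7.04 and was called under neither other scaling. Of fz, fz3, boi, ptc and Delta, the lowest level in pupal and larval CCs was 6.68, of fz3. With the median ratio set to 0 the list had 6 higher and 1 lower.
Immune and cytokine receptors were higher for 7 of 27 genes (15 at 32 units) and lower for 2, and for 4 and 3 under each other scaling. The tumour necrosis factor receptor wgn was at 8.69 against 3.05, and PGRP-LF, a peptidoglycan recognition gene, was at 6.48 in adult CCs and listed at 0 in adult PRs. Lipoprotein and scavenger receptors were higher for 8 of 32 genes and lower for 1, the phototransduction-list gene santa-maria, with 16 at 32 units and a median of 2.00. Under each other scaling 6 were higher and 2 lower. The lipophorin receptors LpR1 and LpR2 were at 8.98 against 4.90 and 10.45 against 6.87, and emp, of the CD36 family, at 10.46 against 6.12.

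**Figure D3:**
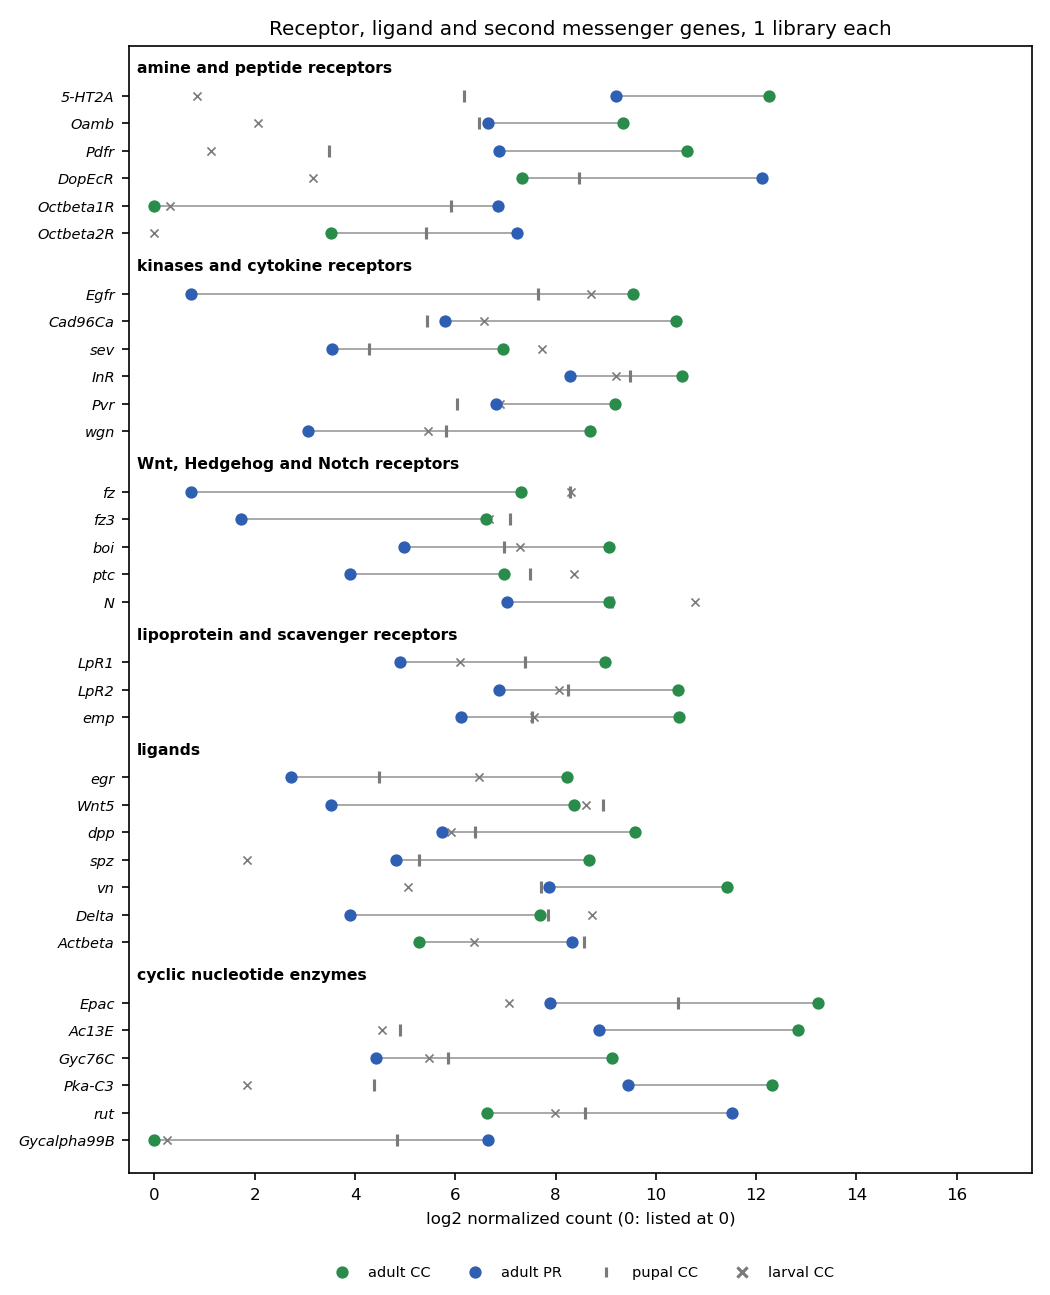
Log2 normalized counts of receptor, ligand and second messenger genes, with adult CCs in green, adult PRs in blue and the pupal and larval CC libraries as grey bars and crosses, 1 library each. DopEcR, both beta octopamine receptors, Actbeta, rut and Gycalpha99B lie to the right in adult PRs, and the other genes shown lie to the right in adult CCs.

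Secreted signalling ligands were higher in adult CCs more often than genes in general. Of 55 genes 28 reached 32 units, 15 were higher, 53.6% of these, and 2 were lower, with a median of 1.64, or 14 and 4 under each other scaling. The tumour necrosis factor egr was at 8.23 in adult CCs against 2.73 in adult PRs, a difference of 4.84, the same direction as its receptor wgn. The neuregulin-like Egfr ligand vn was at 11.43 against 7.87, and the BMP genes dpp and gbb at 9.59 against 5.73 and 7.58 against 4.19. The activin-type ligand daw was at 6.70 and Pvf1, a ligand of the receptor Pvr, at 6.02, and both were listed at 0 in adult PRs. Wnt5 was at 8.36 against 3.53 and the netrin gene NetB at 9.89 against 5.82, both close to their pupal CC levels of 8.95 and 9.76. Lower were the activin gene Actbeta, at 5.28 against 8.32, and the peptide gene sNPF, at 2.30 against 5.32.
Neuropeptide precursors were called in both directions, and the processing genes that were called were lower. Nplp3, a peptide-like precursor, was at 16.72 in adult CCs against 11.52 in adult PRs, after 0.89 in pupal CCs and a listing at 0 in larval CCs. The ion transport peptide gene ITP was at 11.14 against 7.23 and amn at 8.71 against 6.63, while the precursor Capa was lower, at 1.92 against 6.99, as was sNPF. Among processing genes, the prohormone convertase amon was lower, at 4.17 against 8.20, as were its chaperone 7B2 at 4.13 against 8.90 and the amidation enzyme Pal2 at 5.46 against 10.35. Of the list of 42 genes (12 at 32 units) 4 were higher and 5 lower, and 2 were higher under either other scaling, with amn and natalisin no longer called.

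Second messenger enzymes for cAMP and cGMP were called in both directions. Of 36 genes (23 at 32 units) 5 were higher and 7 lower, 21.7% and 30.4% against 21.9% and 11.5% of all genes. With the median ratio set to 0, 10 were lower. Epac, an exchange factor opened by cAMP, was at 13.23 in adult CCs against 7.89 in adult PRs, the adenylyl cyclase Ac13E at 12.82 against 8.87, and the kinase Pka-C3 at 12.32 against 9.45. Ac13E and Pka-C3 had been at 4.90 and 4.38 in pupal CCs. The calcium-stimulated adenylyl cyclase rut had the opposite pattern, at 6.63 against 11.51, and so had Ac76E. For cGMP, the receptor guanylyl cyclase Gyc76C was at 9.13 against 4.42, while the subunits of the nitric oxide-sensitive cyclase were lower. Gycalpha99B was listed at 0 in adult CCs and at 6.66 in adult PRs, and Gycbeta100B was at 2.74 against 5.30.
Calcium signalling genes were also divided within families. Of 41 genes (39 at 32 units) 7 were higher and 9 lower, and 3 were higher and 11 lower under each other scaling. Without the phototransduction genes 7 were higher and 6 lower. The calcineurin catalytic gene CanA-14F was at 11.35 against 8.07, and of the regulatory subunits CanB2 was at 8.94 against 6.61 and CanB at 4.36 against 10.39. CanB2 was called under neither other scaling. The phospholipase C gene Plc21C was at 9.54 against 6.56, and the calcium-binding gene Cpn of PRs at 5.56 against 11.65. Among 22 G protein subunit and regulator genes (20 at 32 units) 5 were higher and 5 lower, but 3 and 6 under each other scaling. Without the phototransduction and glial genes 3 were higher and 2 lower of 16, and Galphai had a difference of 2.94.

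Extracellular matrix and integrin adhesion genes were higher in adult CCs as groups. Of 35 matrix genes 21 reached 32 units, 11 were higher, 52.4% against 21.9% of all genes, and 4 lower. The laminin genes LanB1 and LanB2 were at 11.51 against 5.43 and 9.78 against 4.43. The perlecan gene trol was at 15.42 against 9.98, after 9.31 in pupal CCs, and dpy, a giant apical matrix protein, at 16.59 against 12.40. Enzymes that modify collagen were higher too, with Loxl2, a lysyl oxidase, at 10.32 against 4.98 and Plod, a lysyl hydroxylase, at 7.99 against 2.32. The 4 lower genes were eys, which PRs secrete to hold the rhabdomeres apart, at 6.33 against 12.07, the heparan sulfate proteoglycan Cow at 6.74 against 11.68, nolo at 3.40 against 6.98, and thrombospondin (Tsp) at 6.42 against 9.32.
Of 19 integrin genes and linkers 16 reached 32 units, 9 were higher and 3 lower, with a median of 2.17. Among the receptors, the alpha subunits if and mew were at 7.85 against 4.32 and 8.02 against 5.22, and the beta subunit mys, called under neither other scaling, at 10.18 against 7.99. Inside the cell, the kindlins Fit1 and Fit2 were at 10.22 against 6.86 and 9.39 against 5.19, and the PINCH gene stck at 9.68 against 6.11. The lower genes besides Tsp, which is in both lists, were the adaptors Vinc, at 6.91 against 9.93, and Zasp52, at 5.40 against 9.90.
Cadherins were higher for 9 of 19 genes and lower for 0, with 17 at 32 units and a median of 2.27, and 8 were higher under each other scaling. The giant cadherins ds and ft of planar polarity were at 8.86 against 4.90 and 9.54 against 5.93, and Cad88C at 7.91 against 1.99. The classical cadherins were called neither way, shg (E-cadherin) at 9.68 and 9.21, with a change of sign once the median ratio was set to 0, and CadN (N-cadherin) at 11.45 and 12.09.
Septate and adherens junction genes were higher for 10 of 36 (33 at 32 units) and lower for 1, and for 6 and 1 under each other scaling. Without glial genes 7 of 30 were higher and 1 lower. The claudin-like gene kune was at 7.17 against 0.73, the Ly6-type gene bou at 9.45 against 5.25, and Mcr at 11.94 against 8.59. The scaffold gene pyd, the fly ZO-1, was lower, at 9.71 against 11.83. Gap junction and tetraspanin genes were higher for 7 of 41 (16 at 32 units) and lower for 3, 5 and 3 without the glial genes ogre and Inx2, or 6 and 5 under each other scaling, with Tsp42Ee at 13.26 against 8.63, Tsp42Ej at 6.21 against 10.65 and the neuronal innexin shakB at 4.95 against 8.25.

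Of the neuronal recognition families, dpr and side leaned lower in adult CCs, while few or no DIP and beat genes reached 32 units. In dpr and side 71.4% and 66.7% of the members at 32 units were lower, against 11.5% of all genes. Of the 20 dpr genes, whose products pair cells through DIP partners, 7 reached 32 units, 5 were lower and 1 higher (dpr1, not called with the median ratio set to 0), and dpr7 was at 4.05 in adult CCs against 9.56 in adult PRs. Of the 8 side genes 6 reached 32 units, 4 were lower and 1 higher, side-V, at 9.78 against 5.86. Of the 10 DIP genes 2 reached 32 units and 1 of these, DIP-epsilon, was higher, at 9.22 against 6.49. Of the 14 beat genes 0 reached 32 units, so that no call was possible. Of 23 axon guidance receptors (17 at 32 units) 2 were higher, among them the glial-list gene Nrg, and 1 lower.
Other immunoglobulin superfamily genes were divided, with 14 of 44 (37 at 32 units) higher and 11 lower, or 10 and 11 without the glial genes. Within it, the partners of the irre cell recognition module had opposite directions. The nephrin-like genes hbs and sns were at 7.54 against 3.72 and 9.21 against 6.53, while their binding partners rst and kirre were at 3.23 against 6.92 and 3.18 against 6.70. In larval and pupal CCs the lowest level of the 4 was 6.99, of kirre. The kekkon genes kek4 and kek6 were lower, at 3.09 against 8.05 and listed at 0 against 6.12, as was fipi at 3.09 against 8.97. Of 28 leucine-rich repeat genes (14 at 32 units) 5 were higher and 2 lower, among these the PR gene chp, with Gp150, a regulator of Notch signalling, at 13.78 against 9.81, trn at 10.04 against 4.90, and conv at 7.69 in adult CCs and listed at 0 in adult PRs.
Cuticle-associated families beyond the lens list held few expressed genes. Of 24 Osiris genes 3 reached 32 units and all 3 were higher, Osi9, Osi7 and Osi24, and of 26 Tweedle genes 1 did, TwdlE, at 8.49 in adult CCs and listed at 0 in adult PRs. Of 91 Cpr cuticular protein genes (8 at 32 units) 4 were higher, among them the lens gene Cpr100A, and 2 lower. Of 8 tracheal markers (4 at 32 units) 2 were higher and 0 lower, Gasp, a chitin-binding gene, at 12.39 against 6.31 and Cht2, a chitinase, at 5.69 in adult CCs and listed at 0 in adult PRs. The defining tracheal genes trh and btl were at 3.02 and 2.68 in adult CCs and listed at 0 in adult PRs, and their part in the result was not tested.

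Actin regulators were higher more often than microtubule genes. Of 55 actin genes (49 at 32 units) 16 were higher and 2 lower, with 12 higher and 2 lower once the median ratio was set to 0. The filamins jbug and cher were at 11.61 against 6.86 and 11.23 against 6.51, and the cytoplasmic actin Act5C, not called with the median ratio set to 0, at 12.85 against 10.45. The lower ones were ninaC, the PR myosin of the phototransduction list, and Myo28B1, at 3.94 against 8.38. Of 43 tubulin and microtubule genes (37 at 32 units) 2 were higher and 3 lower. The vesicle-carrying kinesin unc-104 was at 8.19 against 11.70, and Ank2, a neuronal ankyrin, at 11.58 against 15.07.

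**Figure D4:**
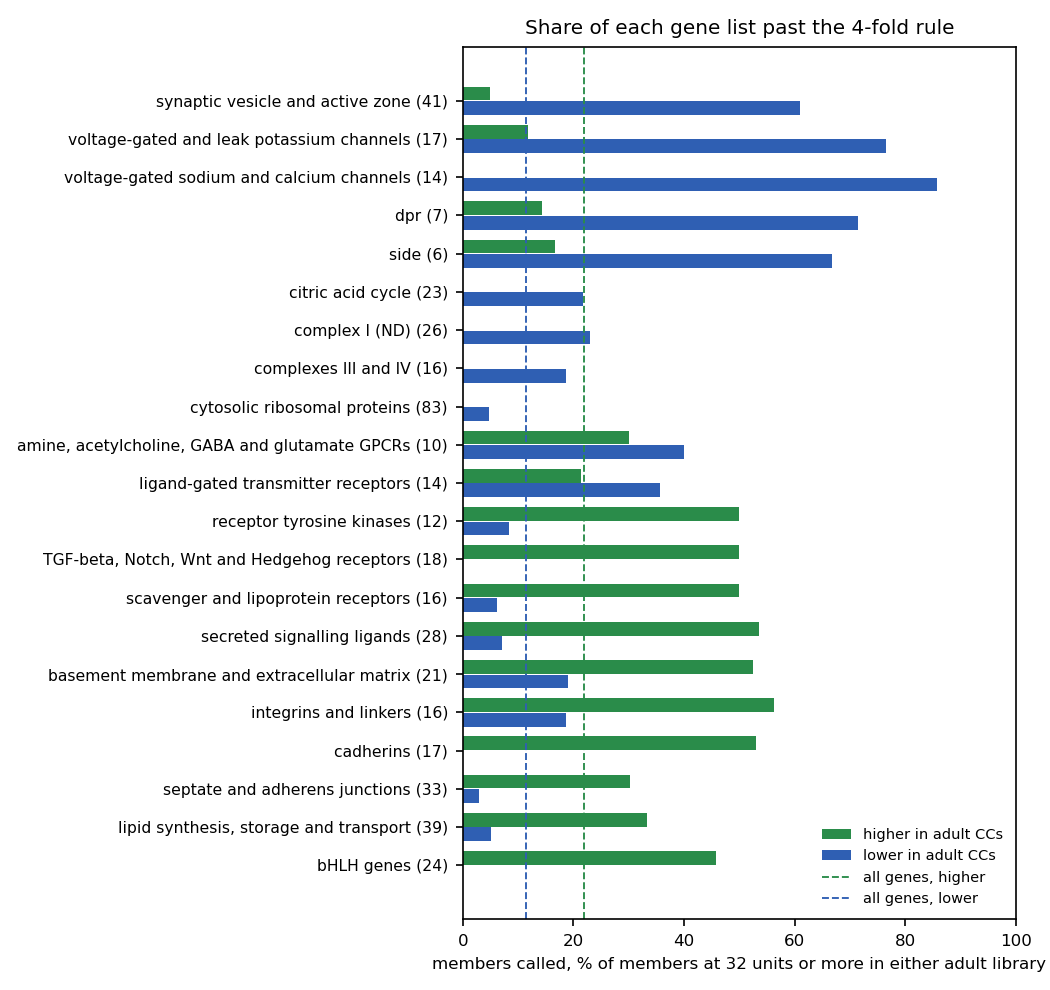
Share of members past the 4-fold rule for 21 gene lists, counted over the members that reached 32 units in an adult library (number in brackets), with green bars for genes higher and blue bars for genes lower in adult CCs and dashed lines for all genes (21.9% and 11.5%). The blue bars are longest for voltage-gated channels, dpr, side and synaptic genes, and the green bars for integrin, ligand, cadherin and matrix genes.

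Transcription factor families differed in their direction. Of 98 homeobox genes 30 reached 32 units, 13 were higher, including the CC fate gene ct, and 6 lower. hth, a partner of Hox proteins, was at 9.34 in adult CCs against 5.78 in adult PRs, and B-H1 and acj6 were at 5.35 and 5.26 and listed at 0 in adult PRs. Lower were oc, at 0.46 against 9.78, onecut at 5.62 against 11.53, Pph13, which acts with oc on PR genes, at 2.36 against 8.75, and dve at 4.30 against 8.10. onecut had been at 9.97 in pupal CCs, while oc and Pph13 were at 0.47 and 3.41 there.
Of 54 bHLH genes 24 reached 32 units, 11 were higher, 45.8% of these, and 0 lower. They included 3 Enhancer of split genes, the direct targets of Notch. Whether Notch activity differed was not tested. E(spl)m3-HLH was at 7.56 against 2.32, and E(spl)mbeta-HLH and E(spl)m7-HLH were at 7.28 and 5.92 and listed at 0 in adult PRs. In pupal and larval CCs the lowest level of the 3 was 8.31, of E(spl)mbeta-HLH. Mondo, a sugar-responsive factor, was at 10.76 against 7.99.
Of 59 zinc finger and other factors (43 at 32 units) 8 were higher and 9 lower, or 5 and 9 with the median ratio set to 0. brk, the repressor of BMP targets, was at 9.63 against 5.79 and tara at 8.24 against 3.32. Lower were the neuronal repressor scrt, at 4.48 against 8.45, and the zinc finger gene peb, at 4.06 against 8.80. Of 56 Sox, forkhead, T-box, GATA, Runx, Ets and KLF genes (20 at 32 units) 8 were higher and 2 lower, or 5 and 3 with the median ratio set to 0, with SoxN at 10.85 against 7.05, Ets98B at 10.28 against 6.11 and FoxP at 3.20 against 7.17. Of 21 nuclear receptors (13 at 32 units) 4 were higher and 1 lower, but 2 and 2 with the median ratio set to 0, with Hr78 at 8.07 against 3.95 and Hr3 at 6.15 against 9.91.
Clock genes were called in both directions, at shares near those of all genes. Of 15 genes (13 at 32 units) 3 were higher and 2 lower, 23.1% and 15.4% against 21.9% and 11.5%. The activators Clk and cyc were at 9.63 against 6.22 and 7.62 against 4.73, and the repressors tim and per at 11.48 against 13.93 and 7.98 against 10.01. The difference of per was at the very edge of the rule. The time of day of each sort is not given in the sources used here, so time and cell type cannot be told apart for these genes.

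Genes of mitochondrial energy metabolism had medians below 0 in adult CCs, though few members passed the 4-fold rule. Of 25 genes of complexes III and IV 17 reached 8 units, with a median of -1.57 and a highest difference of -0.43. Of these genes 16 reached 32 units and 3 were called lower. With the median ratio set to 0 that median was -2.07 and 10 were lower. Complex I had 6 lower and 0 higher of 32 genes (26 at 32 units) with a median of -0.83, and 10 lower with the median ratio set to 0. ATP synthase had 1 lower of 15 (11 at 32 units) with a median of -1.30, or 3 lower under each other scaling. The citric acid cycle had 5 lower and 0 higher of 25 (23 at 32 units) with a median of -1.01. These medians lie against 0.67 for all genes. COX4 was at 6.80 against 9.20, the complex I gene ND-B12 at 3.27 against 7.66, and the succinate dehydrogenase gene SdhC at 5.02 against 8.63. Gdh, which feeds glutamate into the cycle, was at 7.74 against 10.71.
Glycolytic genes had a median of -0.02, and 3 of 28 (22 at 32 units) were higher, 13.6% against 21.9% of all genes. Treh, which splits the blood sugar trehalose, was at 12.22 against 8.42, UGP at 7.43 against 3.06, and Ldh at 6.03 in adult CCs and listed at 0 in adult PRs. Cytosolic ribosomal protein genes were called in 4 of 92 cases (83 at 32 units), all lower, with a median of -0.47, and 8 were lower with the median ratio set to 0. Proteasome genes had a median of 0.76, close to that of all genes.
Lipid genes were higher for 13 of 66 and lower for 2, with 39 at 32 units. The fatty acid elongases bond and Elovl7 were at 10.53 against 3.40 and 8.83 against 2.73, and in pupal CCs they were at 3.67 and 2.93. The desaturase-like gene CG9743 was at 8.24 against 2.73, the triglyceride lipase bmm at 11.14 against 7.83, and ACC, the enzyme that commits carbon to fatty acid synthesis, at 11.06 against 8.68, which was not called with the median ratio set to 0. The lower genes were the sterol-binding gene Npc2a, at 4.53 against 10.41, and the fatty acid-binding gene fabp, at 10.26 against 12.47. Sphingolipid and phospholipid enzymes did not share this lean. Of 42 genes (32 at 32 units) 4 were higher and 3 lower, 12.5% and 9.4% against 21.9% and 11.5% of all genes. Without members of the sets left out above 4 of 39 were higher and 1 lower, or 2 and 1 with the median ratio set to 0. The inositol kinase gene IP3K2 was at 10.80 against 6.17.

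**Figure D5:**
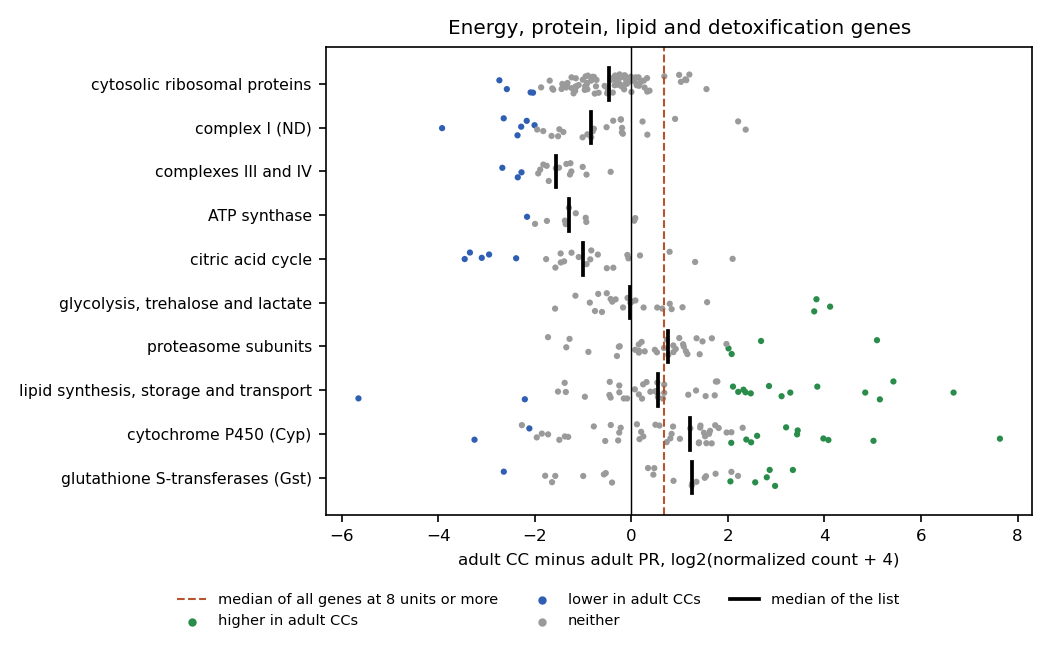
Difference of each gene (adult CC minus adult PR, log2(normalized count + 4)) in 10 lists, over those members that reached 8 units in an adult library, with green points higher, blue points lower and grey points neither. Black bars are list medians and the dashed line is the median of all genes at 8 units or more, 0.67. The medians of the respiratory complexes and the citric acid cycle lie left of 0, and the lipid and cytochrome P450 lists have long tails of genes higher in adult CCs.

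Detoxification and defence families differed in their balance, and that of the detoxification families depended on the scaling. Of 81 cytochrome P450 genes 36 reached 32 units, 11 were higher and 2 lower, but 8 and 6 with the median ratio set to 0. Neighbouring members could differ, with Cyp4p1 at 10.71 against 7.23 and Cyp4p2 at 5.21 against 8.60. Of 35 glutathione S-transferases (16 at 32 units) 6 were higher and 1 lower, and 4 and 4 with the median ratio set to 0, with GstD1 at 10.76 against 7.76 and GstE14 at 5.70 against 8.43. Of 35 UDP-glycosyltransferases (8 at 32 units) 2 were higher and 2 lower, and of 55 other antioxidant and detoxification enzymes (34 at 32 units) 6 were higher and 6 lower. Of 26 serpins (7 at 32 units) 4 were higher and 0 lower, with Spn47C at 9.83 against 5.64.
Among 53 immune effectors (14 at 32 units) 6 were higher and 1 lower, with the thioester protein Tep3 at 10.58 against 5.22 and the stress peptide TotM at 7.01 in adult CCs and listed at 0 in adult PRs. Superoxide dismutases were split by compartment. The extracellular Sod3 was at 10.69 against 6.28, the mitochondrial Sod2 at 3.94 against 7.35, and the cytosolic Sod1 at 8.59 and 9.19. Keap1, the inhibitor of the oxidative stress factor Cnc, was at 7.52 in adult CCs and listed at 0 in adult PRs.

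Transporters showed no common direction. Of 43 sugar, monocarboxylate and amino acid transporters (26 at 32 units) 6 were higher and 6 lower, or 6 and 5 without the glial gene Eaat2. The citrate carrier Indy was at 10.18 against 6.12, the trehalose transporter Tret1-1 at 8.86 against 5.95, and blot, of the neurotransmitter symporter family, at 12.15 against 8.45. The amino acid carrier sbm was at 4.57 against 8.64. Of 41 metal genes (24 at 32 units) 6 were higher and 4 lower, with 2 and 5 once the median ratio was set to 0. The transferrin Tsf3 was at 7.82 against 1.73, the zinc transporter ZnT77C at 3.89 against 9.81 and the metallothionein MtnA at 5.90 against 9.31. ABC transporters were higher for 7 of 44 (30 at 32 units) and lower for 2, or 4 and 2 with the median ratio set to 0.
Secretory and lysosomal genes were mostly called neither way. Of 31 vesicle coat genes (29 at 32 units) 2 were higher, and 0 under either other scaling. Of 43 endoplasmic reticulum genes (38 at 32 units) 4 were higher and 2 lower, among these the opsin chaperone ninaA, with Ire1, a sensor of unfolded protein, at 8.55 against 5.43 and CaBP1 at 7.09 against 2.32. Of 48 lysosome and autophagy genes (36 at 32 units) 3 were higher and 4 lower, or 1 and 4 with the median ratio set to 0, and the lower ones included the protease cathD at 6.89 against 9.94 and Cln3, the fly counterpart of a gene of human Batten disease, listed at 0 against 5.86. Of 33 Rab genes (26 at 32 units) 3 were higher and 3 lower, or 1 and 3 with the median ratio set to 0, with Rab23 at 8.86 against 4.73 and the vesicle-associated Rab3 and Rab26 at 6.51 against 10.22 and 3.08 against 8.03. Of 29 genes of the vacuolar proton pump (18 at 32 units) 3 were higher and 1 lower, but 2 and 3 under each other scaling, with Vha68-2 at 10.29 against 7.08 and VhaAC45RP at 4.86 against 9.25. Pigment granule genes were higher for 4 of 31 (23 at 32 units) and lower for 2, or 2 and 2 under each other scaling, with kar at 10.29 against 7.69 and se, an enzyme of the red drosopterin pigments, at 5.63 against 9.61.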

How the data were processed

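RNA-seq was analysed from 1 library each of adult CCs and adult PRs, with pupal and larval CC libraries for context. Per the labels and the study's methods, the authors amplified RNA (NuGEN Ovation V2), made Nextera libraries, and mapped reads to the dm3 genome; their processing notes name TopHat2 2.0 and Bowtie 1.0. The deposited values are log2 normalized counts (TMM), with 0 left as 0, and they were returned to linear units before 4 units were added and the log2 difference was taken. Of 14959 rows, 24 repeats with values of 0 were dropped, leaving 14935 genes, of which 14166 matched the reference annotation by identifier and 3039 carried a newer symbol there. The annotation, of another build than dm3, gave symbols only, and neither coordinates nor sequences are given.

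Whole reads could not be recovered from the normalized values, so depth is an estimate and no count test was run. Genes were named by rule: the 12 widest differences each way at a log2 level of 8 or more outside the opsin, lens and glial lists, up to 4 called members per list and direction, and the sorting genes. Other genes named, among them Snap25, Syn, brp, unc-13, para, stj, Atpalpha, nrv2, HisCl1, InR, ptc, NetB, dpp, gbb, vn, dpy, Plod, mew, mys, ds, ft, shg, CadN, hbs, sns, rst, kirre, Act5C, acj6, Mondo, ACC, bmm, Sod1, Cyp4p1 and Tret1-1, were picked for their known roles after their values were seen. Members and lists were chosen with earlier results of these data known, and several lists overlap. Alternatives were 1 or 16 units added, 2 other scalings, no floor or a floor at a log2 level of 8, and a difference of 3. Scripts, tested on simulated data, used pandas 2.3.3 and numpy 2.4.6 under Python 3.11.15, and figures matplotlib 3.10.9. In bulk samples, fewer cells of a type and less RNA per cell cannot be told apart.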

Additional observations from a re-analysis of the deposited data

How the results depend on the processing

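The count of genes higher in adult CCs was 920 with 16 units added, 922 with the median ratio set to 0, 602 with a floor at a log2 level of 8 and 681 at a difference of 3 or more, against 1390 in the report. The count of genes lower was 511 with 16 units added, 984 with the median ratio set to 0, 333 with that floor and 423 at that difference, against 734 in the report. Other settings moved these counts by less than 1.5 times: 1488 and 789 with 1 unit added, 1086 and 882 with equal totals, and 1875 and 843 with no floor. Of 495 named genes, 481 of them called, no called gene changed the sign of its difference under these settings, while the uncalled nrv2 did under each other scaling and the uncalled shg did with the median ratio set to 0. The call was lost for 82 with 16 units added, 35 with equal totals, 55 with the median ratio set to 0, 186 with a floor at a log2 level of 8 and 145 at a difference of 3. HisCl1 was called in addition under each other scaling and beat-IIa with no floor. Of 98 list medians 6 changed sign with equal totals and 15 with the median ratio set to 0. No paired analysis was possible because each cell type has 1 library. By the steps between low values, whose worth in reads is uncertain, 3 reads would be 2.56 units in adult CCs and 4.98 units in adult PRs. Low levels rest on few reads, so a listing at 0 does not show absence.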
